A study of Mus musculus with 36 samples.

Results

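Chromatin modifiers and remodellers are the enzymes and complex subunits that write, erase and read marks on histones and DNA or that move nucleosomes. They were taken here as the genes of the deposited table whose symbol fits a fixed pattern for a set of families. These were histone deacetylases (Hdac) and sirtuins (Sirt), histone demethylases (Kdm), histone methyltransferases (Kmt, Setd), the core of polycomb repressive complex 2 (Ezh1, Ezh2, Eed, Suz12), DNA methyltransferases (Dnmt) and TET dioxygenases, SMARC, CHD and ARID remodelling genes, numbered bromodomain genes (Brd), and acetyltransferases (Kat, Ep300, Crebbp). Kdm and ARID symbols were taken only with a digit followed by a or b, so some genes of these families, such as Kdm4c, are not members. This gave 98 of the 11337 genes, in 12 roles. No measured value entered the choice.

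PolyA RNA was sequenced from skeletal muscle stem cells (MuSCs, also called satellite cells, from which damaged muscle is rebuilt) of 36 male C57BL6 mice (written C56BL/6 in the strain field), 1 mouse per library. In the wheel cohort, mice of 3 months (young, Y) or 18 months (old, O) were housed for 3 weeks with a running wheel, either locked (-Ex) or free to turn (+Ex): Y(-Ex) had 6 libraries, O(-Ex) 7, Y(+Ex) 3 and O(+Ex) 5. Their hindlimb MuSCs were sorted as viable VCAM+ cells that lacked CD31, CD45 and Sca1. In the Ccnd1 cohort every mouse, controls included, carried Pax7_CreERT2 and R26R_YFP and received tamoxifen, and YFP+ cells were sorted 6 weeks later. These mice were Ccnd1_+/+ at 3 months (Y(WT), 3 libraries) or 18 months (O(WT), 3), Ccnd1_+/flox at 3 months (Y(HET), 4) or Ccnd1_flox/flox at 3 months (Y(KO), 5). Cre acts there only in cells that expressed Pax7, so other cells of those mice keep Ccnd1.

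In a stem cell that rests for long periods, chromatin enzymes keep lineage and cell cycle genes silent but inducible. Polycomb repressive complex 2 methylates lysine 27 of histone H3, Kdm6a and Kdm6b remove that mark, deacetylases and acetyltransferases act against each other on histone tails, and ATPases of the SWI/SNF, ISWI and CHD families slide or evict nucleosomes. In satellite cells, Ezh2, Kmt5 enzymes, the Smarcd3 subunit and several deacetylases are known for roles in quiescence, proliferation or the muscle programme.

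The values are RPKM (reads divided by gene length and by library size), which are per length and so can be compared between genes. The labels give 20 to 40 M reads per library. The table holds no counts, so single libraries' depth stays unknown and no counting interval is given. Between 10426 and 10613 genes exceeded 1 RPKM per library. The 17 satellite cell markers, Pax7 among them, were all measured, with a summed level of 3253 to 5101 RPKM. No value in the table was 0. Ccnd1 lay at 2.07 to 3.40 RPKM in the KO libraries against 10.6 to 13.3 in Y(WT) and 6.37 to 8.13 in Y(HET), as those labels say. The deposited values had lost 6 directions of variation beside the groups, with the locked-wheel and WT controls merged, and for that reason the cohorts' age differences are not independent of each other. The removed directions held 61% of the age contrast in the Ccnd1 cohort and 28% of that in the wheel cohort. They also held 38% of the contrast of KO with WT and 35% of that of HET with WT. Of the contrast of free with locked wheel they held 12% in old and 10% in young mice. They held practically no part of KO against HET. P-values of age, of the free wheel and of KO and HET against WT can therefore be too small or too large.

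Averaged over all libraries, the members' levels ran from 1.01 RPKM for Sirt6 to 72.0 RPKM for Arid5b, with a median of 7.54 RPKM against 6.12 for all genes. All 98 members had a mean of at least 1 RPKM over the 36 libraries, and 62 had a mean of at least 5. After Arid5b, the highest levels were those of Arid5a (58.7 RPKM), Brd2 (52.1 RPKM) and Kdm6b (49.7 RPKM), the last a demethylase of H3 lysine 27. No gene was removed for low values before testing. Reads of genes that overlap on opposite strands are uncertain because no source used here states whether the counting used strand. More than 20% of the exon length was shared with another gene for 4 members: Setd1a (52.3%), Smarcd3 (48.2%, with Chpf2), Kdm3b (24.6%) and Hdac4 (22.4%).

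Age was the comparison in which most members moved. Between old and young locked-wheel mice, 32 of the 98 members passed the test (32.7%), 11 higher and 21 lower in old cells, where 38.3% of all genes passed. Lower calls took 21.4% of the members against 17.8% of all genes, and higher calls 11.2% against 20.5%. The median log2 change was -0.09 for the members and 0.01 for all genes. The changes were small: 1 of the 32 exceeded a factor of 2, and their median fold was 1.30. The groups did not overlap in any library for 10 members (10.2%, against 12.4% of all genes): Hdac11, Hdac6, Kmt5c, Smarca1, Arid5a and Smarcb1 were lower, and Setd6, Smarca5, Hdac2 and Chd1 higher. The test was limma on log2 RPKM with no pseudocount, p-values were adjusted over all 11337 genes by the Benjamini-Hochberg method, and a gene was called at an adjusted p under 0.05. Log2 changes are given ± SE and mean levels ± SD over the libraries of a group.

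**Figure D1:**
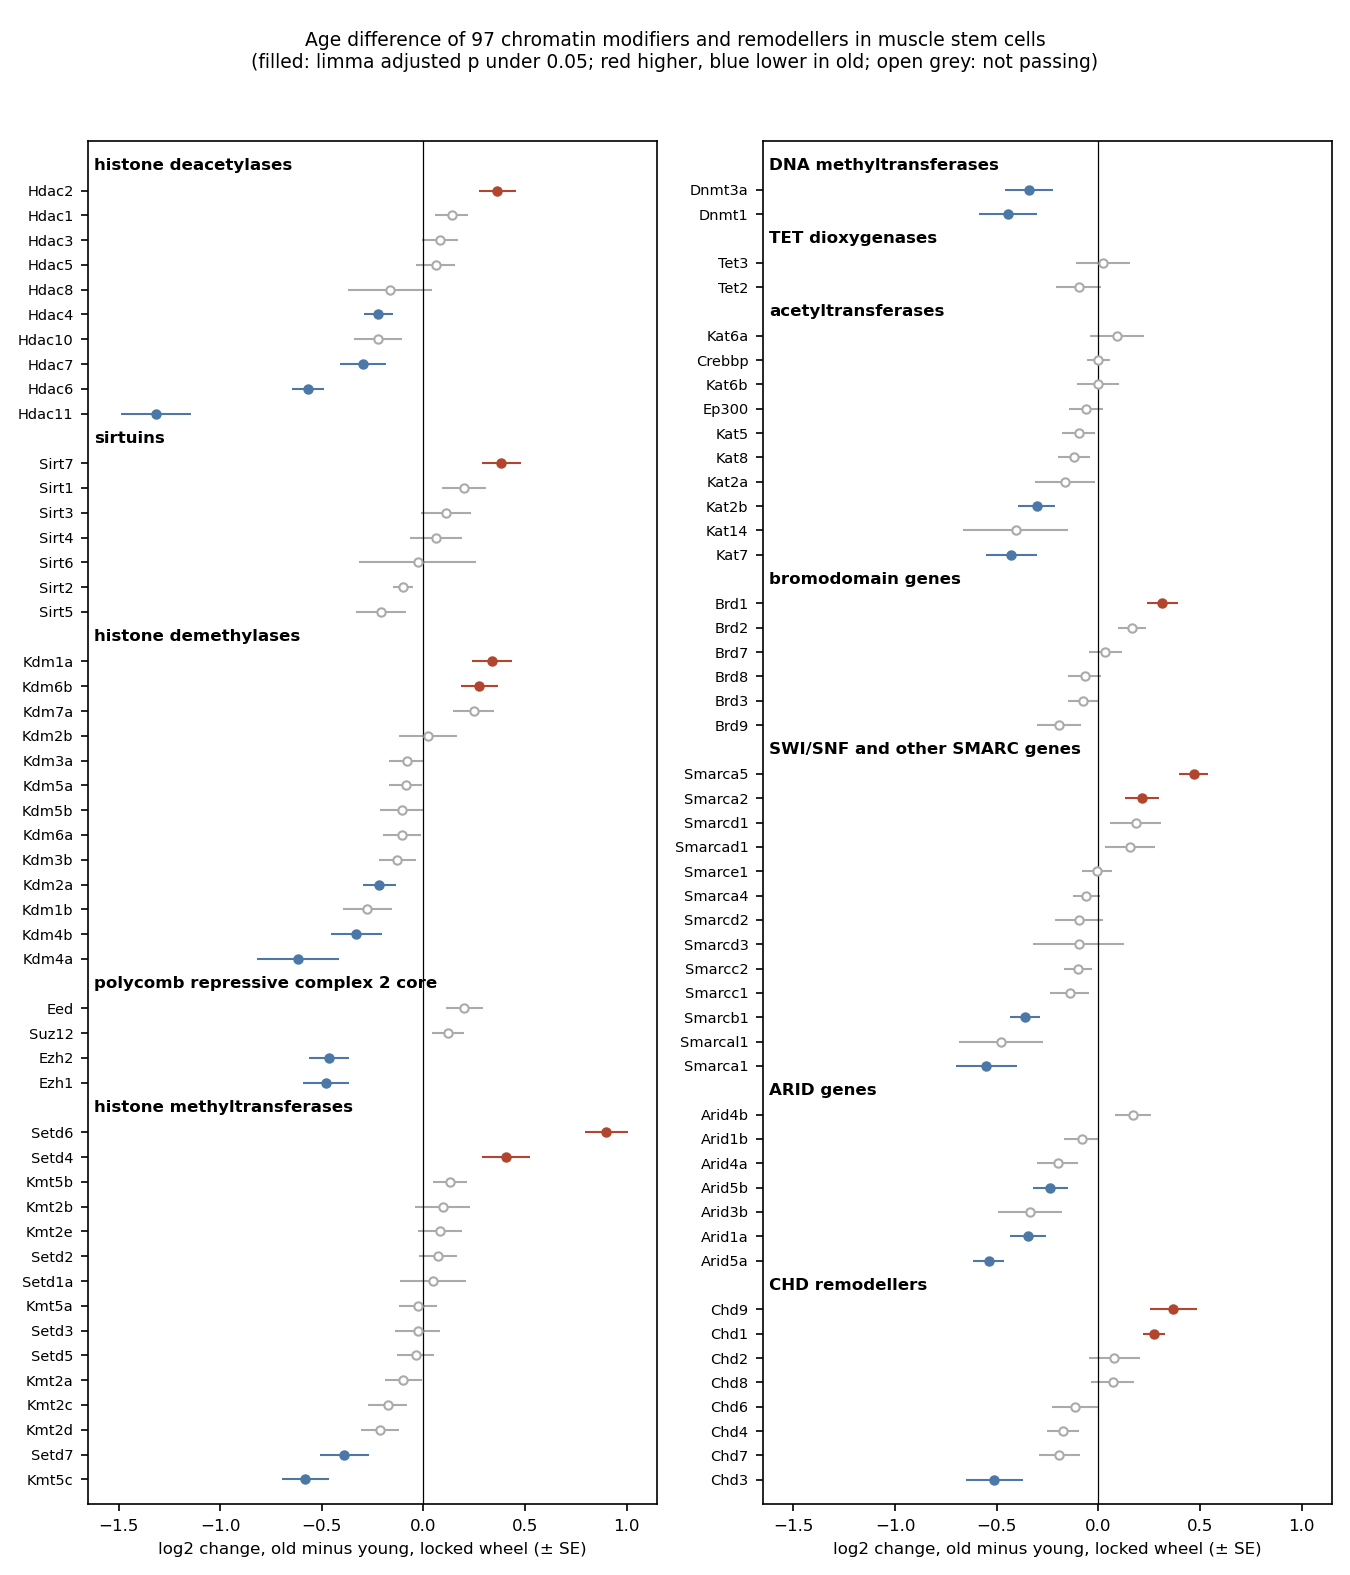
Log2 change of 97 of the 98 members between old and young locked-wheel libraries (x axis, bars are standard errors), in rows by role, with called members marked. Hdac11 lies farthest to the left at -1.31 and Setd6 farthest to the right at 0.90.

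Some markers of MuSCs and of other cell types were called with age as well, where 38.3% of all genes passed (20.5% higher, 17.8% lower). Of 17 satellite cell markers 2 were higher and 7 lower in old cells, with Pax7 at 18.8 to 32.5 RPKM in Y(-Ex) and 15.0 to 19.8 in O(-Ex), and their sums were 3916 to 4687 and 4117 to 4888 RPKM. Of 12 fibroadipogenic markers 4 were higher and 3 lower (sums of 1404 to 1893 and 1022 to 1552 RPKM), with Col1a1 at 65.8 to 289.9 RPKM in Y(-Ex) and 17.2 to 29.2 in O(-Ex) and Dcn at 33.7 to 70.2 and 71.5 to 153 RPKM. The summed level of 10 myofibre markers was 126.6 to 733.8 RPKM in Y(-Ex) and 47.4 to 192.7 in O(-Ex), with 3 called lower. That of 8 keratinocyte markers was 6.14 to 9.76 RPKM in Y(-Ex) and 14.2 to 21.0 in O(-Ex), with Krt5 at 0.00887 to 0.0194 RPKM in Y(-Ex) and up to 0.139 RPKM in O(-Ex), and 4 were called higher. The 12 endothelial markers summed to 135.8 to 195.2 RPKM in Y(-Ex) and 146.4 to 208.8 in O(-Ex), with 3 called higher and 1 lower. The part of these lists in the members' changes was not tested. In such bulk samples, fewer cells of a type and less RNA per cell cannot be told apart.

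Start regions are shown for 5 members on which the results below turn: Hdac11 and Setd6, which had the largest fall and rise with age, the paralogues Ezh1 and Ezh2, which fell side by side, and Kdm7a, which was lower in runners of both ages. The windows come from RefSeq (GRCm38.p6), run from 250 bases before to 50 after the start, and are written 5′ to 3′ on the gene's strand. They lie at chr6:91156565-91156864 (Hdac11, plus), chr8:95715663-95715962 (Setd6, plus), chr11:101226414-101226713 (Ezh1, minus), chr6:47594981-47595280 (Ezh2, minus) and chr6:39206724-39207023 (Kdm7a, minus). Capitals mark every match, on either strand, to one of the motifs searched; neighbouring matches can run together.
Hdac11: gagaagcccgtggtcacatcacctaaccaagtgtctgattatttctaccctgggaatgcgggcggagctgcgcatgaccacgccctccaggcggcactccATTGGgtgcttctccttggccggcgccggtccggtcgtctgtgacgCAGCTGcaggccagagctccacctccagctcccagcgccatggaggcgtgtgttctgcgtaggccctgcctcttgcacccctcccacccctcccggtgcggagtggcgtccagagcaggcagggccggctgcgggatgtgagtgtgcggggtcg
Setd6: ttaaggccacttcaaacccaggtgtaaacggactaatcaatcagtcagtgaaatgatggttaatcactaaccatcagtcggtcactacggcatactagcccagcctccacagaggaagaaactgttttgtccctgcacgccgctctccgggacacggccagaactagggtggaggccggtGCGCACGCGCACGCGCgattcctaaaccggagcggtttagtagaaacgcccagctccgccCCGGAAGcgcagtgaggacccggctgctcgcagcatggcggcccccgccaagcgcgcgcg
Ezh1: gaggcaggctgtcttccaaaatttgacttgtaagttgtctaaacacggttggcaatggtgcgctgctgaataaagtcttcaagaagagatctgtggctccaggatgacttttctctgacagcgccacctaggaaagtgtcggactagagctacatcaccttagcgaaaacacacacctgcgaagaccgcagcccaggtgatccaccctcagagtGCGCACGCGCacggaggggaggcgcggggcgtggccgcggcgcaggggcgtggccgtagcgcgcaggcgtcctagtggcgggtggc
Ezh2: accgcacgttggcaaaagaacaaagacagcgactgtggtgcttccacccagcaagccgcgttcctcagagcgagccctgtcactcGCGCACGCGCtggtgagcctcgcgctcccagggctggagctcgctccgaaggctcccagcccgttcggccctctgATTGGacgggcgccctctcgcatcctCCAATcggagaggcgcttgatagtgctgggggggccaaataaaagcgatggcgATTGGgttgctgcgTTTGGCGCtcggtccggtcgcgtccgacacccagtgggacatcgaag
Kdm7a: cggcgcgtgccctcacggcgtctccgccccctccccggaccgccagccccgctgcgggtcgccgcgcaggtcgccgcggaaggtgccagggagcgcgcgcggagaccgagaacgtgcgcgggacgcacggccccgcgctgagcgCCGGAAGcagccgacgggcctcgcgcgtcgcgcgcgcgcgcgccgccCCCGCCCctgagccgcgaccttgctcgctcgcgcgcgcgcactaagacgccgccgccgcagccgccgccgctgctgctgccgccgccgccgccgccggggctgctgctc
The motifs searched were E2F (TTTCCCGC, TTTGGCGC, TTTGCCGC or TTTCGCGC), NRF1 (GCGC, any base, T, then GCGC), ETS (CCGGAAG), NF-Y (CCAAT), CRE (TGACGTCA), AP-1 (TGANTCA), GC box (GGGCGGG) and E-box (CAGCTG). Ezh2 held an E2F word that began 4 bases after the start, an NRF1 word and 3 NF-Y words, while its paralogue Ezh1 held 1 NRF1 word and no other match. Setd6 held 2 overlapping NRF1 words and an ETS word, Hdac11 an NF-Y word and an E-box, and Kdm7a an ETS word and a GC box. RefSeq windows were found for 79 of the 98 members. Of their 109 windows, 8.26% held an E2F word against 2.26% of all 32851 windows, 10.1% an NRF1 word against 4.6%, and 53.2% a GC box against 25.6%. The 32851 windows came from 27025 genes, many of them outside the 11337 genes tested here, so the 2 sets were not matched for expression. An ETS word was present in 15.6% of member windows against 8.86%, NF-Y in 37.6% against 37.4%, AP-1 in 7.34% against 7.81%, the E-box in 14.7% against 16.3%, and CRE in 0 of 109 against 1.79%. Among members that changed with age and had a window, E2F words stood in 4 of 18 lower and 0 of 9 higher members, NF-Y words in 11 of 18 and 2 of 9, NRF1 words in 4 of 18 and 3 of 9, ETS words in 1 of 18 and 4 of 9, AP-1 words in 4 of 18 and 1 of 9, GC boxes in 7 of 18 and 2 of 9, and E-boxes in 4 of 18 and 1 of 9. The shares among all genes that changed with age were not computed, so these counts have nothing to be set against. All of these are matches of letters within a window and describe no binding.

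Among the 10 histone deacetylases 4 fell with age and 1 rose. Hdac11 (ENSMUSG00000034245, chromosome 6, 91156665 to 91174692, mm10), the single class IV deacetylase, had a lowest, median and highest level of 2.01, 2.71 and 3.34 RPKM in Y(-Ex) and 0.777, 1.06 and 1.77 RPKM in O(-Ex). The groups did not overlap, and Hdac11 also lay at 3.27 to 3.53 RPKM in the 3 young runners and 1.00 to 1.33 RPKM in the 5 old runners. The log2 change was -1.31 ± 0.17 (SE, 7 old and 6 young libraries; limma adjusted p = 5.4e-06). Of its exon length, 17.9% is shared with genes on the opposite strand.

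Hdac6, a mostly cytoplasmic enzyme that deacetylates tubulin, lay at 10.4, 11.0 and 13.3 RPKM (lowest, median, highest) in Y(-Ex) and at 6.74, 7.64 and 9.08 RPKM in O(-Ex). No old library reached the lowest young one, with a log2 change of -0.57 ± 0.08 (limma adjusted p = 9.7e-06). Hdac4, a class IIa enzyme that shuttles between nucleus and cytoplasm, fell by 0.22 ± 0.07 on the log2 scale. Hdac7, a member of the same class that was not on the list of named calls, fell by 0.30 ± 0.11. The call of Hdac4 was lost in 4 of 19 alternative fits. Hdac2, a catalytic subunit of the NuRD and Sin3 complexes, rose from 11.6 ± 1.26 to 15.0 ± 1.75 RPKM (mean ± SD), a log2 change of 0.36 ± 0.09 without overlap. Its partner Hdac1 (0.14 ± 0.08) and Hdac5 (0.06 ± 0.10) did not pass. Of the 7 sirtuins, NAD-dependent deacylases, Sirt7 rose from 3.54 ± 0.42 to 4.61 ± 0.49 RPKM (log2 change 0.38 ± 0.10), and Sirt1 (0.20 ± 0.11) did not pass.

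**Figure D2:**
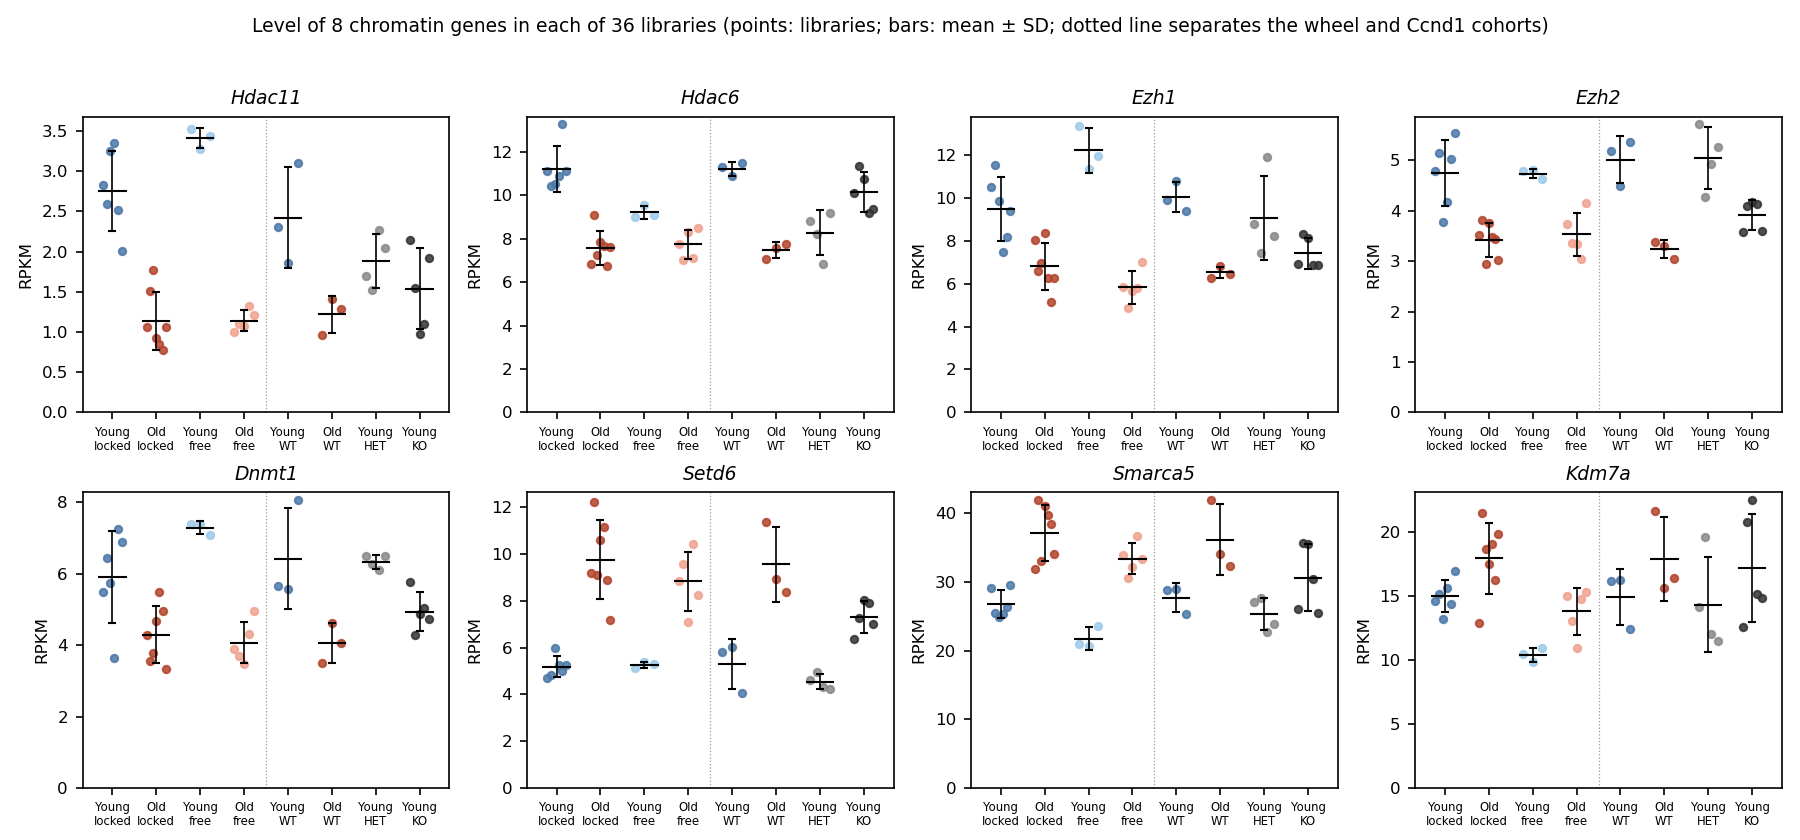
RPKM of 8 members in every library (points) of the 8 groups, with group means and SD, each panel with its own axis from 0. Hdac11, Hdac6, Ezh1, Ezh2 and Dnmt1 have lower means and Setd6 and Smarca5 higher means in the old groups than in the young locked-wheel and WT groups, and Kdm7a has its lowest mean in the young runners.

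Of the 4 measured core genes of polycomb repressive complex 2, both catalytic subunits fell with age and both scaffold subunits did not pass. Ezh1 lay at 7.49, 9.59 and 11.5 RPKM in Y(-Ex) and 5.14, 6.59 and 8.35 RPKM in O(-Ex), with some overlap between the groups. Ezh2 lay at 3.78, 4.90 and 5.54 RPKM in Y(-Ex) and 2.93, 3.49 and 3.81 RPKM in O(-Ex), where the highest old library passed only the lowest young one. The log2 changes were -0.48 ± 0.11 for Ezh1 (limma adjusted p = 0.0022) and -0.46 ± 0.10 for Ezh2 (limma adjusted p = 0.0009). Eed, which reads the methyl mark, and Suz12, which holds the complex together, had log2 changes of 0.20 ± 0.09 and 0.12 ± 0.08. Levels of Ezh1 in RPKM were above those of Ezh2 in every group, and the Ezh2/Ezh1 ratio moved by 0.02 on the log2 scale with age.

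Both measured DNA methyltransferases were lower in old cells. Dnmt1, which copies methylation after replication, lay at 3.64, 6.09 and 7.26 RPKM in Y(-Ex) and 3.32, 4.29 and 5.49 RPKM in O(-Ex), a log2 change of -0.45 ± 0.14 (limma adjusted p = 0.017). Young replicates 1 and 4 lay within the old range. Dnmt3a, a de novo methyltransferase, lay at 2.24, 2.89 and 3.40 RPKM in Y(-Ex) and 1.96, 2.15 and 2.71 RPKM in O(-Ex). Its groups overlapped and its log2 change was -0.34 ± 0.12 (limma adjusted p = 0.028), a call lost in 5 of 19 alternative fits. Neither TET dioxygenase, enzymes that oxidise methylcytosine, passed: Tet2 had a log2 change of -0.10 ± 0.11 and Tet3 of 0.02 ± 0.13. Dnmt3b and Tet1 were not analysed here. Genes of S and G2/M phase moved with age too, since 9 of 15 measured were lower and 1 higher, where 17.8% of all genes were lower and 20.5% higher. Their summed level was 140.5 to 170.6 RPKM in Y(-Ex) and 128.3 to 156.7 in O(-Ex). The part of cycling cells in the falls of Ezh2 and Dnmt1 was not tested.

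Among 15 histone methyltransferases outside that complex, 2 rose and 2 fell with age. Setd6 (ENSMUSG00000031671, chromosome 8, 95715881 to 95719010, mm10), which methylates RelA and other proteins, lay at 4.72, 5.14 and 5.97 RPKM in Y(-Ex) and 7.18, 9.21 and 12.2 RPKM in O(-Ex). Every old library was above every young one, with a log2 change of 0.90 ± 0.11 (limma adjusted p = 1.7e-06). The runners fell on the same sides, at 5.11 to 5.38 RPKM in Y(+Ex) and 7.08 to 10.4 RPKM in O(+Ex). Setd4 rose by a log2 change of 0.40 ± 0.12. Kmt5c, which trimethylates H4 lysine 20 in heterochromatin, fell without overlap from 4.03 ± 0.49 to 2.69 ± 0.30 RPKM (log2 change -0.58 ± 0.12, limma adjusted p = 0.00046). Setd7, an H3 lysine 4 monomethylase with many protein substrates, fell by 0.39 ± 0.12 on the log2 scale. The H3 lysine 4 methylases Kmt2a (-0.10 ± 0.09) and Kmt2d (-0.21 ± 0.09) did not pass.

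The 13 histone demethylases among the members held 2 that rose and 3 that fell. Kdm4a, which acts on H3 lysines 9 and 36, had the largest change of these, from 2.98 ± 0.54 to 2.01 ± 0.63 RPKM (log2 change -0.62 ± 0.20), with overlapping groups. Its relative Kdm4b fell by 0.33 ± 0.12 and the H3 lysine 36 demethylase Kdm2a by 0.22 ± 0.08. Kdm1a (LSD1), of the CoREST complex, rose from 16.8 ± 1.38 to 21.4 ± 3.00 RPKM. Kdm6b lay at 34.1, 48.6 and 58.7 RPKM in Y(-Ex) and 51.8, 56.7 and 59.3 RPKM in O(-Ex), so 5 of 6 young libraries lay below every old one. Its log2 change was 0.27 ± 0.09 (limma adjusted p = 0.022), and its X-linked counterpart Kdm6a had -0.11 ± 0.09 and did not pass. The calls of Kdm2a and Kdm4b were lost in 11 and 8 of 19 alternative fits, and that of Kdm6b in 3.

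Of 10 acetyltransferases 2 fell with age and none rose. Kat7 (HBO1), which acetylates histones H3 and H4, went from 18.3 ± 3.14 to 13.7 ± 2.64 RPKM (log2 change -0.43 ± 0.13), and Kat2b (PCAF), a cofactor of MyoD, from 6.61 ± 0.75 to 5.34 ± 0.45 RPKM (-0.30 ± 0.09). The general coactivators Crebbp (limma adjusted p = 0.99) and Ep300 (log2 change -0.06 ± 0.09) did not pass. Of 7 bromodomain genes, readers of acetylated lysine, Brd1 rose by a log2 change of 0.32 ± 0.07.

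The remodelling ATPases of the ISWI family moved in opposite directions. Smarca5 (SNF2H) lay at 24.9, 25.9 and 29.5 RPKM in Y(-Ex) and 31.9, 38.4 and 41.9 RPKM in O(-Ex), a log2 change of 0.47 ± 0.07 (limma adjusted p = 3.9e-05). Smarca1 (SNF2L) lay at 2.24, 2.71 and 3.02 RPKM in Y(-Ex) and 1.24, 1.95 and 2.11 RPKM in O(-Ex), a log2 change of -0.55 ± 0.15 (limma adjusted p = 0.0064). Neither gene's groups overlapped. Of the SWI/SNF genes among the 13 SMARC members, the core subunit Smarcb1 fell from 8.78 ± 0.48 to 6.86 ± 0.62 RPKM and the ATPase Smarca2 rose from 8.62 ± 1.29 to 9.91 ± 0.55 RPKM. The call of Smarca2 was lost in 12 of 19 alternative fits. The other ATPase, Smarca4 (-0.06 ± 0.07), and the subunits Smarcd1 (0.18 ± 0.13), Smarcd2 (-0.10 ± 0.12) and Smarcd3 (-0.10 ± 0.23) did not pass. Among 8 CHD remodellers, Chd1 (log2 change 0.27 ± 0.06) and Chd9 (0.37 ± 0.11) rose, Chd3 fell by 0.51 ± 0.14, and Chd4, the NuRD ATPase, had -0.17 ± 0.08 without passing. Of 7 ARID genes 3 fell: Arid5a from 69.7 ± 9.20 to 47.7 ± 4.18 RPKM, Arid1a, a subunit of the BAF form of SWI/SNF, from 9.31 ± 0.92 to 7.33 ± 0.81 RPKM, and Arid5b from 83.7 ± 13.5 to 70.7 ± 7.46 RPKM. The call of Arid5b was lost in 6 of 19 alternative fits.

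In the Ccnd1 cohort, 11 members differed between 3 old and 3 young WT libraries (11.2%, against 15.8% of all genes), 2 higher and 9 lower, where 8.03% of all genes were higher and 7.76% lower. All 11 were also called in the same direction in the wheel cohort, which is 34.4% of its 32 calls. Since the removed directions tie the control groups of both cohorts together, this is not a second measurement of age. Hdac11 lay at 1.86 to 3.09 RPKM in Y(WT) and 0.965 to 1.41 RPKM in O(WT), a log2 change of -0.98 ± 0.29. Ezh1 lay at 9.90, 10.7 and 9.37 RPKM in Y(WT) and 6.27, 6.81 and 6.46 RPKM in O(WT), and Ezh2 at 5.19, 4.49 and 5.35 RPKM and 3.38, 3.29 and 3.05 RPKM. Neither overlapped, with log2 changes of -0.62 ± 0.14 and -0.63 ± 0.12 (limma adjusted p = 0.012 and 0.0044). Setd6 (0.86 ± 0.15) and Sirt7 (0.43 ± 0.12) rose, and Smarca1, Kdm4a, Kmt5c, Dnmt1, Hdac6 and Arid5a fell by 0.56 to 0.73. Groups did not overlap for 32 members (32.7%, against 37.0% of all genes). Of S and G2/M genes 5 of 15 were called lower (sums of 130.8 to 190.2 RPKM in Y(WT) and 120.1 to 166.5 in O(WT)). Calls among cell type markers, beside the 15.8% of all genes, were 2 of 8 keratinocyte markers higher (6.70 to 8.24 and 13.4 to 29.1 RPKM), 2 higher and 3 lower of 12 fibroadipogenic markers (1171 to 2077 and 1267 to 1332 RPKM), 2 of 12 endothelial markers higher (146.8 to 189.6 and 174.6 to 188.4 RPKM) and 3 of 17 satellite cell markers lower (3756 to 4525 and 4206 to 4721 RPKM). The part of these lists in the members' changes was not tested. Without O(WT) replicate 3 the count of called members was 5, and without Y(WT) replicate 2 it was 7.

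**Figure D3:**
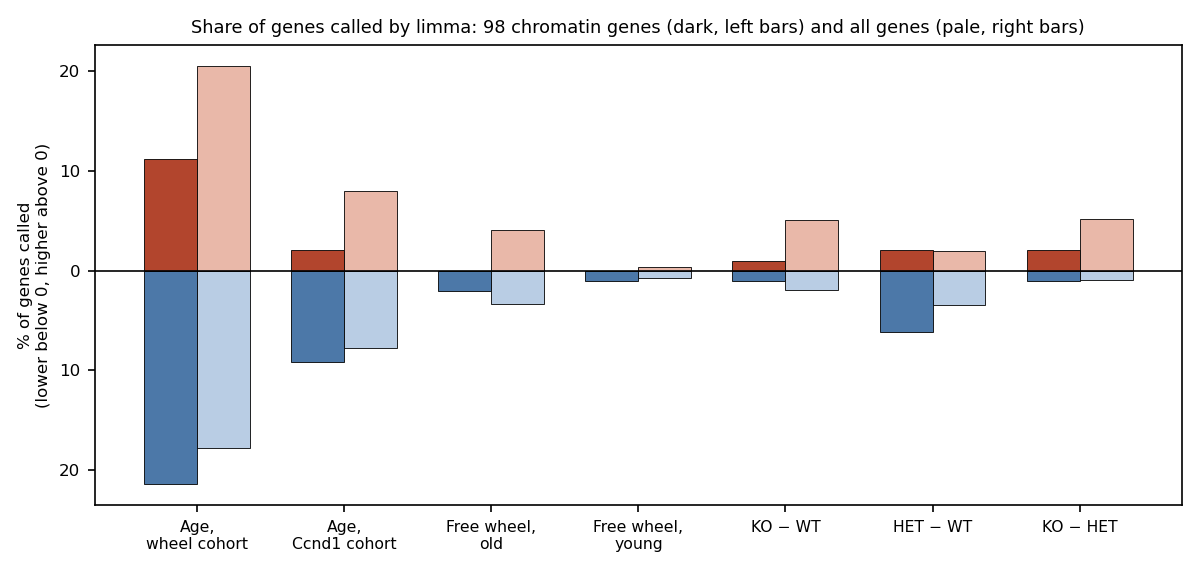
Share of the 98 members and of all 11337 genes called at an adjusted p under 0.05 in each comparison (bars from 0, in percent, with higher calls above and lower calls below 0, members dark and all genes pale). The members' share was 32.7% for age in the wheel cohort against 38.3% of all genes, and 2.04% against 7.39% for the free wheel in old mice.

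A free wheel moved few members. In old mice 2 of 98 were called (2.04%), both lower, where 7.39% of all genes passed (4.09% higher, 3.3% lower). In young mice 1 was called (1.02%, against 1.12% of all genes, 0.406% higher and 0.714% lower). Kdm7a, a demethylase of H3 lysines 9 and 27, was lower in runners of both ages. It lay at 13.2, 14.9 and 16.9 RPKM (lowest, median, highest) in Y(-Ex) and at 10.4, 9.81 and 10.9 RPKM in the 3 Y(+Ex) libraries, a log2 change of -0.53 ± 0.13 (limma adjusted p = 0.044). In old mice it lay at 12.9, 18.6 and 21.4 RPKM in O(-Ex) and at 15.0, 13.0, 10.9, 14.7 and 15.3 RPKM in O(+Ex), a log2 change of -0.37 ± 0.11 (limma adjusted p = 0.035). The young groups did not overlap, while the lowest old locked-wheel library, replicate 1, lay within the range of the old runners. The young call was lost in 10 of 15 alternative fits and the old one in 10 of 18. Leaving out any of 7 single libraries ended the young call: Y(-Ex) 2, 4, 5 or 6, or any of the 3 runners.

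Hdac4 was the other member called in old runners. It lay at 12.2, 13.3 and 14.8 RPKM in O(-Ex) and at 11.2, 10.2, 11.1, 10.9 and 11.8 RPKM in O(+Ex), a log2 change of -0.28 ± 0.08 (limma adjusted p = 0.032). The groups did not overlap, and the call was lost in 9 of 18 alternative fits. No member was called without O(-Ex) replicate 2, 4 or 5 or without O(+Ex) replicate 2 or 3, and 4 were called without O(-Ex) replicate 1. Groups did not overlap for Hdac4 and Kdm6b in old mice (2.04% of members, against 3.94% of all genes). Kdm6b had a log2 change of -0.30 ± 0.10 in old runners (limma adjusted p = 0.058) and -0.41 ± 0.12 in young runners (limma adjusted p = 0.091), so neither passed. In young mice 9 members did not overlap (9.18%, against 9.55% of all genes). Endothelial markers, all 12 measured, summed to 205.9 to 276.1 RPKM in O(+Ex) against 146.4 to 208.8 in O(-Ex), with 3 called higher. Of 15 measured S and G2/M genes, 4 were higher and 1 lower in old runners (sums of 122.5 to 140.4 RPKM against 128.3 to 156.7) and 3 higher and 1 lower in young runners (149.1 to 175.7 against 140.5 to 170.6). The part of either list in the members' changes was not tested.

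Members that changed with age mostly did not pass for the wheel in old cells, where only 2.04% of all members and 7.39% of all genes passed. Kdm6b, higher in old than in young locked-wheel cells, lay lower in old runners without passing. Setd6 (log2 change -0.14 ± 0.11 for the wheel in old mice), Ezh1 (-0.22 ± 0.12), Ezh2 (0.04 ± 0.10), Dnmt1 (-0.07 ± 0.15) and Hdac6 (0.03 ± 0.08) did not pass. Hdac4 lay lower in old than in young locked-wheel cells and lower again in old runners. These comparisons share the O(-Ex) libraries.

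No member differed in its response to the wheel between old and young mice by limma, where 0.00882% of all genes, 1 gene, passed. At an unadjusted p under 0.05 there were 4 members (4.08%, against 8.47% of all genes). The lowest p belonged to Ezh1, whose log2 change was 0.38 ± 0.15 in young and -0.22 ± 0.12 in old runners, a difference of -0.59 ± 0.19 (limma adjusted p = 0.43). In RPKM, Ezh1 lay at 13.3, 11.3 and 11.9 in Y(+Ex) and at 5.86, 4.84, 5.64, 5.80 and 6.98 in O(+Ex), with no overlap between young and old runners. Kat7 followed, with 0.34 ± 0.16 in young and -0.30 ± 0.13 in old runners (difference -0.64 ± 0.21), and Hdac6 with -0.28 ± 0.10 and 0.03 ± 0.08 (difference 0.31 ± 0.13). Neither passed (limma adjusted p = 0.43 and 0.55).

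**Figure D4:**
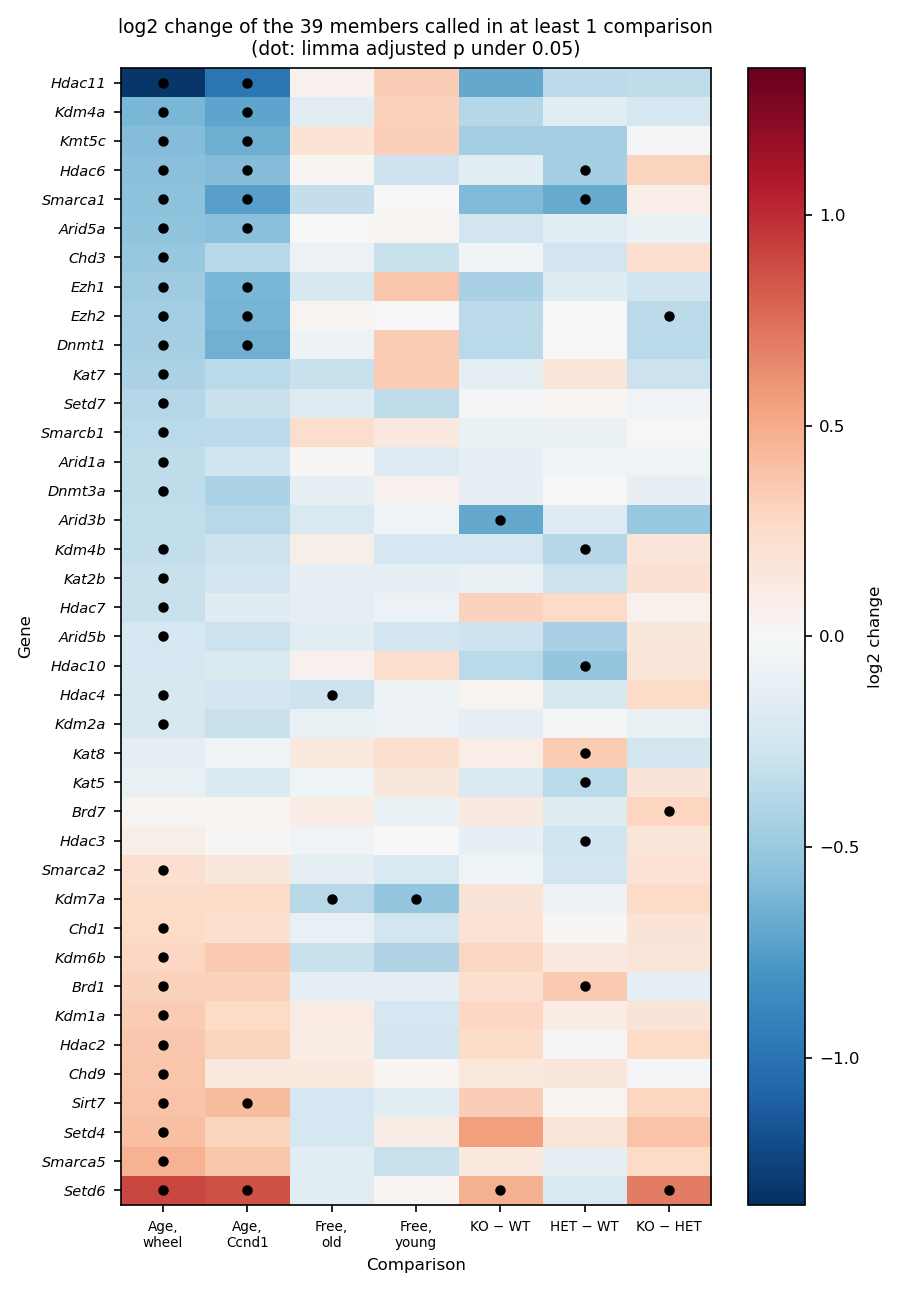
Log2 change (colour) of the 39 members called in at least 1 of 7 comparisons, 1 row per gene and 1 column per comparison (Free: free minus locked wheel), with a dot where limma's adjusted p was under 0.05. Of the dots, 32 stand in the column for age in the wheel cohort, and the other 59 members had none.

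Loss of Ccnd1, which encodes cyclin D1, moved 2 members between Y(KO) and Y(WT) (2.04%, 1 in each direction, against 6.99% of all genes, 5.05% higher and 1.94% lower). Setd6 lay at 5.82, 6.01 and 4.08 RPKM in Y(WT) and at 6.35, 7.26, 8.03, 7.92 and 7.03 RPKM in Y(KO), without overlap, a log2 change of 0.48 ± 0.14 (limma adjusted p = 0.047), a call lost in 10 of 14 alternative fits. Arid3b, a DNA-binding ARID protein with a low level here, fell from 1.39 ± 0.31 to 0.856 ± 0.12 RPKM, a log2 change of -0.69 ± 0.19 (limma adjusted p = 0.042). Its call was lost in 9 of 14 alternative fits. Ezh1 (-0.44 ± 0.13) and Ezh2 (-0.35 ± 0.11) missed the threshold (limma adjusted p = 0.053 and 0.059). Of 15 measured S and G2/M genes 7 were lower in KO, with sums of 108.9 to 144.8 RPKM against 130.8 to 190.2 in Y(WT), and their part in these values was not tested. No member was called without Y(WT) replicate 2 or 3 or Y(KO) replicate 3 or 5, 1 without Y(WT) replicate 1 or Y(KO) replicate 1 or 4, and 5 without Y(KO) replicate 2. With median-of-ratios scaling the calls over all genes went from 573 higher and 220 lower to 438 and 267, and the members' calls to 0 higher and 4 lower. Groups did not overlap for 17 members (17.3%, against 17.8% of all genes).

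Heterozygous cells differed from WT in 8 members (8.16%, against 5.39% of all genes), 2 higher and 6 lower, where 1.98% of all genes were higher and 3.4% lower. Deacetylases made up 3 of the 6 that fell: Hdac10, which prefers polyamines, fell from 5.76 ± 0.74 to 4.00 ± 0.44 RPKM (log2 change -0.52 ± 0.12), Hdac6 from 11.2 ± 0.31 to 8.28 ± 1.04 RPKM (-0.45 ± 0.11), and Hdac3, a member not on the list of named calls, from 13.9 ± 1.17 to 11.5 ± 0.18 RPKM. Smarca1 (-0.69 ± 0.19), Kdm4b (-0.39 ± 0.10) and the acetyltransferase Kat5 (Tip60, -0.37 ± 0.08) fell, and Kat8 (MOF, 0.34 ± 0.09), which acetylates H4 lysine 16, and Brd1 (0.35 ± 0.10) rose. None of the 8 had overlapping groups, and 18 members in all did not overlap (18.4%, against 21.2% of all genes). Limma adjusted p-values lay between 0.028 and 0.048. All 8 measured keratinocyte markers of 10 were higher in Y(HET), with sums of 89.7 to 211.4 RPKM against 6.70 to 8.24 in Y(WT) and Krt5 at 14.3 to 35.8 RPKM. Of 12 fibroadipogenic markers 1 was lower, with sums of 947.5 to 1146 RPKM in Y(HET) and 1171 to 2077 in Y(WT). Satellite cell markers had 2 of 17 lower (3253 to 3964 and 3756 to 4525 RPKM) and endothelial markers 1 of 12 higher (173.7 to 196.3 and 146.8 to 189.6 RPKM). What part these lists had in the members' changes was not tested. No member was called without Y(WT) replicate 2 or Y(HET) replicate 2, 1 without Y(WT) replicate 3 or Y(HET) replicate 4, 2 without Y(HET) replicate 1, and 4 without Y(WT) replicate 1 or Y(HET) replicate 3. With median-of-ratios scaling the calls over all genes went from 225 higher and 386 lower to 272 and 187, and the members' calls to 2 higher and 2 lower.

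KO and HET cells differed in 3 members (3.06%, 2 higher and 1 lower, against 6.04% of all genes, 5.15% higher and 0.891% lower). Setd6 lay at 4.62, 4.95, 4.33 and 4.24 RPKM in Y(HET), below every KO library, and its log2 change of 0.69 ± 0.12 (limma adjusted p = 0.0068) passed in every alternative fit. Brd7, a subunit of the PBAF form of SWI/SNF, was higher in KO (0.29 ± 0.08) and Ezh2 lower (-0.36 ± 0.10). Ezh2 lay at 5.72, 4.26, 4.92 and 5.25 RPKM in Y(HET) and at 3.58, 4.09, 4.17, 4.13 and 3.60 RPKM in Y(KO), without overlap (limma adjusted p = 0.046). The calls of Brd7 and Ezh2 were lost in 11 and 10 of 15 alternative fits. Keratinocyte marker sums were 5.24 to 9.13 RPKM in Y(KO), so they moved with this comparison too, and 2 of 15 S and G2/M genes were lower in KO (sums of 108.9 to 144.8 RPKM against 110.8 to 129.8 in Y(HET)). Of 17 satellite cell markers 2 were higher in KO (3730 to 5101 RPKM against 3253 to 3964). The part of these lists in it was not tested. The count of called members was 1 without Y(HET) replicate 1, 3 or 4 or Y(KO) replicate 1, 2, 3 or 5. With median-of-ratios scaling the calls over all genes went from 584 higher and 101 lower to 213 and 130, and the members' calls to 1 higher and 3 lower. Groups did not overlap for 10 members (10.2%, against 10.1% of all genes).

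Setd6 was thus called in 4 comparisons. By group mean its level in RPKM was lowest in Y(HET) (4.54 ± 0.32). It was near 5 in the young groups with intact Ccnd1 (5.18 ± 0.45 in Y(-Ex), 5.25 ± 0.14 in Y(+Ex), 5.30 ± 1.06 in Y(WT)). Then came 7.32 ± 0.69 in Y(KO), 8.83 ± 1.27 in O(+Ex), 9.56 ± 1.60 in O(WT) and 9.76 ± 1.68 in O(-Ex). Neighbours in this order overlapped, except Y(WT) and Y(KO).

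Ratios of paralogous members, taken within each library as log2 of the RPKM ratio, describe the balance inside families without a test. Smarca4/Smarca2, the choice of SWI/SNF ATPase, was 1.20 ± 0.18 (SD) in Y(-Ex) and 0.93 ± 0.07 in O(-Ex), and 1.16 ± 0.12 in O(+Ex). The old runners (1.073 to 1.37) lay only just above the old locked-wheel libraries (0.845 to 1.065), without overlap. The young locked-wheel libraries (1.017 to 1.466) overlapped the old ones, and the young runners, at 1.41 ± 0.17, overlapped the young locked-wheel libraries. Ezh2/Ezh1 was -1.36 ± 0.12 in Y(+Ex) and -0.72 ± 0.15 in O(+Ex), which did not overlap (-1.48 to -1.24 and -0.93 to -0.53), with the means of both locked-wheel groups between them. Kdm6b/Kdm6a was 3.17 ± 0.38 in Y(-Ex), 3.55 ± 0.14 in O(-Ex), 2.77 ± 0.04 in Y(+Ex) and 3.22 ± 0.28 in O(+Ex), with overlap between locked and free wheel at each age and between the ages with a locked wheel. In the Ccnd1 cohort it was 2.95 to 3.25 in Y(WT) and 3.36 to 4.03 in O(WT), without overlap.

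Hdac1/Hdac2 was 1.44 ± 0.10 in Y(-Ex) and 1.21 ± 0.18 in O(-Ex), and Arid1a/Arid1b 0.15 ± 0.17 and -0.12 ± 0.20, both with overlap. Crebbp exceeded Ep300 by a log2 ratio of 1.99 to 2.24 in all 8 group means, and Dnmt1 exceeded Dnmt3a in every group, with a log2 ratio of Dnmt3a to Dnmt1 between -1.32 and -0.87. Smarcd3/Smarcd1, alternative subunits of SWI/SNF of which Smarcd3 is known for muscle genes, was 0.04 ± 0.50 in Y(WT) and -0.85 ± 0.38 in Y(HET), without overlap. Reads of Smarcd3 can belong to Chpf2, which covers 48.2% of its exon length with other genes on the opposite strand.

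**Figure D5:**
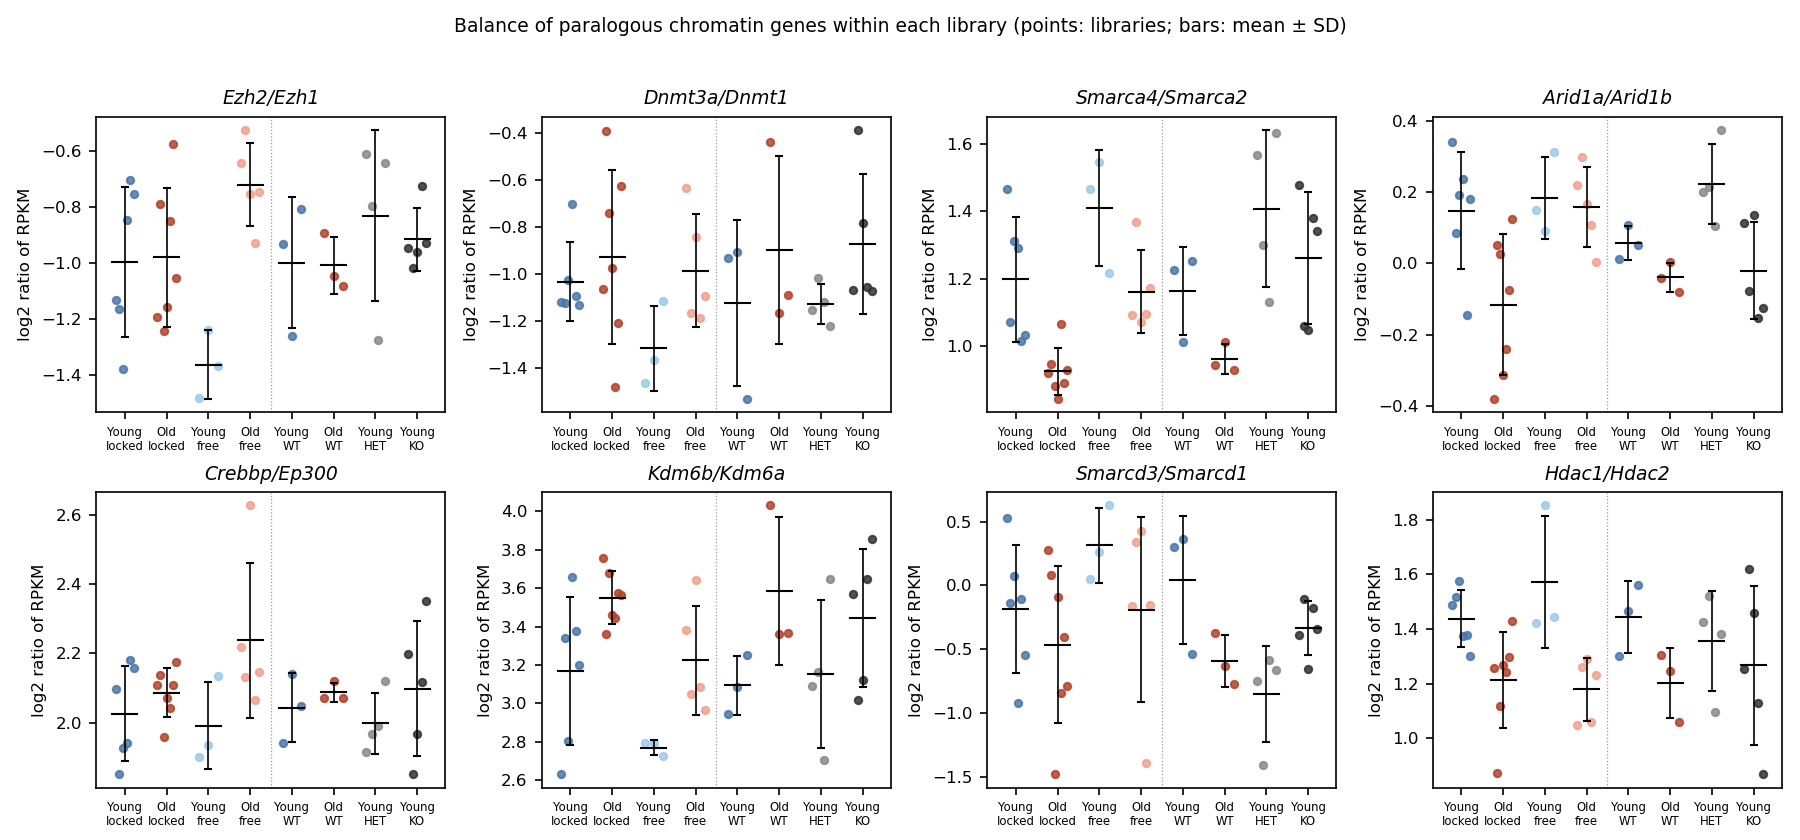
Log2 ratio of RPKM of paralogous members in every library (points) of the 8 groups, 1 panel per pair. Smarca4/Smarca2 lies at 0.845 to 1.065 in old locked-wheel libraries and 1.073 to 1.37 in old runners, with a narrow gap between them.

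The authors' deposited table gives a correlation of each gene's level with that of Ccnd1. It was negative for 64 of the 98 members (65.3%) and for 49.3% of all genes in the authors' deposited table. A coefficient of -0.5 or lower was found for 12 members (12.2%, against 6.1% of all genes) in the authors' deposited table, and one of 0.5 or higher for 7 (7.14%, against 7.53%). The lowest coefficient in the authors' deposited table was that of Suz12 (-0.71), followed by Kmt2a (-0.62) and Kdm7a (-0.59), and the highest was that of Kdm1b (0.70), followed by Hdac10 (0.63) and Setd3 (0.60). Setd6 had -0.02 and Ezh2 0.01 in the authors' deposited table. Ccnd1 itself lay at 9.58 to 14.5 RPKM in Y(-Ex), 6.11 to 9.70 in O(-Ex), 15.0 to 19.5 in Y(+Ex) and 14.9 to 23.9 in O(+Ex).

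Partner genes of the members, in 10 lists of complex subunits and related enzymes, were measured for 183 of 212 names, of which Kdm2b is also a member. With age, 39 rose and 27 fell (36.1%, against 38.3% of all genes), with a median log2 change of 0.02. Histone chaperones, which carry histones to and from DNA, held 9 that rose and 1 that fell of 15, with a median log2 change of 0.23. Among them, Supt16, a subunit of FACT, had a log2 change of 0.69 ± 0.08 and Anp32b of 0.50 ± 0.08, and Ubn1 fell by 0.32 ± 0.08. Of 26 ISWI, INO80 and SWR1 genes, 9 rose and 2 fell, with Baz2b at 0.50 ± 0.12 and Ino80e at 0.34 ± 0.08 and with Znhit1 and Vps72 falling by 0.34 ± 0.08 and 0.24 ± 0.06.

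Repressive partners were mixed. Of 26 accessory genes of polycomb complex 2 and genes of complex 1, 5 rose and 5 fell, including Aebp2 (log2 change 0.76 ± 0.09) and Phc2 (0.38 ± 0.09) against Cbx6 (-0.60 ± 0.13) and the ubiquitin ligase Rnf2 (-0.44 ± 0.10). Of 16 heterochromatin and methylation reader genes, 4 fell and 1 rose. Uhrf1, which brings Dnmt1 to replicated DNA, had the largest change, from a mean of 1.47 to 0.405 RPKM (-1.89 ± 0.36). The H3 lysine 9 methylase Ehmt2 fell by 0.54 ± 0.11. Suv39h2, at a low level, went from a mean of 0.801 to 1.26 RPKM (0.64 ± 0.25, limma adjusted p = 0.047). Of 18 NuRD, Sin3, CoREST and NCoR genes, 3 rose (Sap18 0.33 ± 0.06, Gatad2a 0.33 ± 0.08) and 5 fell (Tbl1xr1 -0.72 ± 0.07, Sin3a -0.64 ± 0.10).

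Activating partners changed in both directions as well. Of 11 COMPASS genes, subunits of the H3 lysine 4 methylases, 3 rose and 2 fell, with Wdr5 at 0.55 ± 0.10, Psip1 at 0.35 ± 0.08, Men1 at -0.48 ± 0.11 and Hcfc1 at -0.21 ± 0.08. Of 30 subunits of acetyltransferase complexes, 2 rose (Tada2b 0.65 ± 0.13, Sgf29 0.35 ± 0.08) and 3 fell (Supt20 -0.51 ± 0.12, Ing5 -0.33 ± 0.08). Other SWI/SNF subunits gave 3 higher and 1 lower of 11 (Actl6a 0.27 ± 0.06, Bcl7b 0.27 ± 0.08, Bicra -0.54 ± 0.18). Bicra had a low level, with a mean of 1.24 RPKM in Y(-Ex) and 0.837 in O(-Ex). Other histone methyltransferases gave 2 higher and 1 lower of 18 (Smyd5 0.53 ± 0.10, Smyd3 0.34 ± 0.10, Nsd1 -0.23 ± 0.08). Of 12 further JmjC genes 2 rose, Riox1 by a log2 change of 1.07 ± 0.17 and Jmjd6 by 0.39 ± 0.10, and 3 fell, among them Jmjd1c (-0.40 ± 0.11) and Kdm4c (-0.39 ± 0.11).

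In old runners 7 of the 183 partner genes passed (3.83%, against 7.39% of all genes), 2 higher and 5 lower. Suv39h1, an H3 lysine 9 methylase, fell by 0.38 ± 0.10, Mbd1, a reader of methylated DNA, by 0.51 ± 0.15, Msl2 by 0.35 ± 0.08, Epc1 by 0.33 ± 0.08 and Baz1a, the partner of Smarca5, by 0.32 ± 0.09. Mcrs1 (0.32 ± 0.07) and Chrac1 (0.30 ± 0.08) rose.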

How the data were processed

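The data are polyA RNA sequencing of sorted muscle stem cells, 36 libraries with 1 mouse each, in 8 groups of 3 to 7. Per the submitters' processing notes, the tools were Trim Galore, STAR and featureCounts (Subread) with mm10. The authors deposited RPKM values of 11337 genes, from 0.00144 to 10531, without zeros, and a score per gene, the authors' deposited correlation with Ccnd1. The centred log2 values have rank 29 of 35, and 6 directions of variation were removed before deposit by a step not described in the sources. Between the 2 cohorts' control groups 0 genes had an unadjusted p under 0.05 by limma, and the members' largest log2 differences were 0.28 (young) and 0.18 (old). P-values can be too small or too large for that reason.

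Group means were fitted to log2 RPKM by linear models, separately in each cohort (limma 3.58.1 with eBayes, trend and robust; R 4.3.3; statmod 1.5.0). P-values were adjusted over all genes by Benjamini-Hochberg, with calls under 0.05. The code was tested on simulated data. Each alternative changed 1 choice: a pseudocount of 1, a minimum mean of 1 RPKM, median-of-ratios scaling, the replicate number as a block, other sets of groups, and each library left out. Positions come from GENCODE M21 and start regions from RefSeq.

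The members and lists were chosen with earlier results of these data known. Named were a list of well-known members and, per role, the called members with the lowest p (up to 3 per direction for age in the wheel cohort, otherwise up to 2). For partner genes up to 2 per direction were named, and their calls were not checked under the alternatives. The single values of 1 member are not reported here.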

Additional observations from a re-analysis of the deposited data

Results flagged for a closer look

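Among the 55 members named, 275 groups of 4 to 7 libraries were tested for a single library far from the rest of its group (Dixon's test), and 10 stood out, where chance gives about 1 in 20 groups. Old runner replicate 3 was the lowest of its group for Ep300 (3.1294 RPKM, the others 4.02 to 4.25), Kdm1a (16.8795 RPKM, the others 23.7 to 25.6) and Kdm6a (3.9825 RPKM, the others 4.94 to 5.32). Old runner replicate 2 was the highest for Hdac1 (39.9356 RPKM, the others 34.5 to 35.5). In Y(HET), replicate 3 was lowest for Hdac1 (25.2751 RPKM, the others 31.6 to 32.0), replicate 1 for Chd9 (2.9171 RPKM, the others 3.29 to 3.34) and replicate 4 for Tet2 (8.6923 RPKM, the others 9.89 to 10.1). In Y(-Ex), replicate 5 was highest for Hdac6 (13.3075 RPKM, the others 10.4 to 11.1) and replicate 4 for Smarcd1 (4.979 RPKM, the others 2.90 to 3.40). In O(-Ex), replicate 2 was lowest for Kat5 (18.93 RPKM, the others 22.6 to 24.9).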

How the results depend on the processing

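Of the 31 named calls for age in the wheel cohort, 24 held under every alternative run, as did 4 of 11 for age in the Ccnd1 cohort, 1 of 3 for KO against HET (Setd6), and none of the 7 for HET, 2 for KO, 2 for the wheel in old and 1 for the wheel in young mice. None of these named calls changed sign under an alternative. Named values that did not pass were not checked for sign. With the replicate block, the members called were 28 and 10 for age (wheel and Ccnd1 cohorts), 0 for KO, 0 for HET and 1 for KO against HET. For the wheel, 0 were called in young mice and 1 in old mice. That 1 member was higher in runners, so it was neither Hdac4 nor Kdm7a, whose calls were both lost. The calls over all genes fell from 793 to 1 for KO, from 611 to 179 for HET, from 685 to 262 for KO against HET and from 127 to 14 for the wheel in young mice. The labels do not say whether libraries of the same number share a batch. Correlations of same-numbered libraries' deviations ran from -0.26 to 0.30. For the free wheel in old mice 4 of 5 pairs exceeded 0.1. A library correlated best with its own number in 0 of 6 pairs for age and 1 of 3 for age in the Ccnd1 cohort. For the free wheel this held in 3 of 5 pairs in old and 0 of 3 in young mice. It held in 2 of 3 pairs for KO, 0 of 3 for HET and 2 of 4 for KO against HET. With only the compared groups in the fit, members called were 0 for the wheel in young mice, 0 for KO, 1 for HET, 1 for KO against HET and 7 for age in the Ccnd1 cohort, and all-gene calls 22, 379, 300, 327 and 1231. With all 8 groups in a single fit they were 1 (again higher in runners) and 0 for the free wheel in old and in young mice, 4 for KO and 5 for KO against HET. With median-of-ratios scaling they were 4 for KO and 4 for HET, and all-gene calls for KO against HET were 343. Leaving out 1 library gave 28 to 33 members for age in the wheel cohort, 5 to 9 in the Ccnd1 cohort, 0 to 4 for the wheel in old and 0 to 2 in young mice, 0 for their difference, 0 to 5 for KO, 0 to 4 for HET and 1 to 2 for KO against HET. Where no other value shows it, the cause was not tested. Alternatives for the paralogue ratios (pseudocount 1, each library left out) were chosen after seeing the data. They were run only for the difference between O(-Ex) and Y(-Ex), and moved none of these by more than the ratio's spread. Ratio differences with the free wheel and in the Ccnd1 cohort were not run under alternatives. Levels of about 1 RPKM, such as Arid3b, are the least precise.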
